A study of Mus musculus with 28 samples.

Results

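This report compares tibialis anterior (TA) muscle of *Bin1* mck-/- mice on placebo with TA muscle of wild-type (WT) mice on placebo from the same cohort. The comparison holds 8 mice, 4 in each group, of the 28 mice of the series, and they were chosen by genotype, treatment and cohort in the sample labels. The mice were C57BL/6N and 8 weeks old, and both groups received the placebo of a tamoxifen study. The label mck names the muscle creatine kinase promoter, by which the deletion of *Bin1* is restricted to muscle. The labels do not say how much of the gene other cells of the muscle keep. The third group of this cohort, 4 *Bin1* mck-/- mice on tamoxifen, entered the same statistical fit. *Dnm2* S619L/+ mice and their own WT mice, both on placebo and 4 in each group, serve for comparison with another model. The paper lists that cohort as C57BL/6N and 8 weeks old as well. Its tamoxifen groups, 4 *Dnm2* S619L/+ and 4 WT mice, entered the fit of that cohort and the fit of both cohorts. RNA input and fragmentation time were 350 ng and 8 min in the *Bin1* cohort but 300 ng and 2 min in the *Dnm2* cohort.

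*Bin1* encodes amphiphysin 2, a BAR-domain protein that bends membranes and forms the T-tubules, the invaginations of the muscle cell membrane that carry the action potential to the sarcoplasmic reticulum. T-tubules and sarcoplasmic reticulum meet at the triad, where the voltage sensor in the T-tubule opens the calcium channel RYR1. Loss of *BIN1*, loss of the phosphoinositide phosphatase *MTM1* and gain-of-function mutations of the membrane-cutting GTPase *DNM2* cause centronuclear myopathies, in which nuclei lie away from the fiber's edge.

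Reads counted on genes ranged from 30776801 to 35136327 per mouse in WT and from 29063032 to 33654116 in *Bin1* mck-/- mice. Levels are given as CPM, the counts of a gene relative to the TMM-scaled library size, which corrects for differences in library composition. A log2 fold change is written with its SE after the sign ±. Every defining marker of skeletal muscle fibers examined (14 genes) was detected, with a summed level of 188168 to 238230 CPM in WT and 142374 to 200156 in *Bin1* mck-/- mice, so that the groups overlapped. No pair of mice within a group was close enough to be 1 library deposited again, since the chi-square of their counts per degree of freedom was at least 20.8.

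*Bin1* (ENSMUSG00000024381) was at 549, 521, 533 and 556 CPM in the WT mice 5 to 8. It was at 62.1, 51.6, 52.2 and 58.8 CPM in the *Bin1* mck-/- mice 1 to 4, far below WT in each of them. The log2 fold change was −3.26 ± 0.13 (edgeR adjusted p = 7.10e-10). Counts per gene do not tell which exons or which cells the remaining reads came from. *Gm44577* (ENSMUSG00000109232) moved the other way. This noncoding RNA gene is the next gene after *Bin1* on the same strand among those tested. It was at 0.0839, 0.0348, 0.352 and 0.181 CPM in WT, that is 21 reads in all 4 mice, and at 9.38, 5.86, 8.45 and 7.48 CPM in *Bin1* mck-/- mice (1047 reads). Its log2 fold change of 5.54 ± 0.40 (edgeR adjusted p = 3.46e-06) was the second most significant after that of *Bin1*. The treated *Bin1* mck-/- mice, which carry the same deletion, had 4.49 to 8.11 CPM. Other tested neighbours did not pass the test. *A830052D11Rik*, which overlaps *Bin1* on the opposite strand, had a log2 fold change of −0.35 ± 0.23, *Ercc3* of −0.15 ± 0.12 and *Gypc* of −0.31 ± 0.14, with edgeR adjusted p = 0.429, 0.527 and 0.230.

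Of 14841 genes tested, 388 were called differentially expressed at an edgeR adjusted p under 0.05 (2.61%), 295 of them higher (1.99%) and 93 lower (0.627%) in *Bin1* mck-/- mice. The median log2 fold change of all genes was 0.01. Of the called genes, 205 were over 2-fold higher and 34 over 2-fold lower. In 365 of the 388 genes the *Bin1* mck-/- and WT mice did not overlap, while among all genes tested 9.09% lay without overlap above WT and 7.46% below. The 12 largest rises and 12 largest falls named below were chosen among genes without overlap. Their lack of overlap is therefore no finding. The number of calls depended on the mice in the fit. When only the 8 compared mice were fitted, 1458 of 14376 genes were called (10.1%), 921 higher (6.41%) and 537 lower (3.74%), and 371 of the 388 genes were among them. Leaving out 1 of the 12 mice gave 18 genes without WT mouse 8, 26 without WT mouse 6, 89 without WT mouse 7 and 207 without WT mouse 5. Without *Bin1* mck-/- mouse 4, 2, 1 or 3 the counts were 58, 97, 105 and 728. Without the treated mice 1 to 4 they were 340, 759, 683 and 623. In the 8-mouse fit the counts ranged from 522 without WT mouse 6 to 2123 without *Bin1* mck-/- mouse 3. Without WT mouse 8, every call named here was lost except those of *Bin1*, *Gm44577*, *Rrad*, *Klhl40* and *Tppp3* (*Acss1* was not followed in these fits). For this reason the number of leave-one-out fits that kept a call is given for most called genes below, out of 12 for the 12-mouse fit and out of 8 for the 8-mouse fit.

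The *Bin1* mck-/- mice differed in how far they lay from WT. Over the 295 genes called higher, mouse 3 had the lowest of the 4 values in 229 genes and mouse 4 the highest in 183. Over the 93 genes called lower, mouse 3 was nearest to WT in 60 and mouse 4 farthest in 64. Among WT mice, mouse 5 was nearest to the *Bin1* mck-/- mice in several genes of fast fibers described below.

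**Figure D1:**
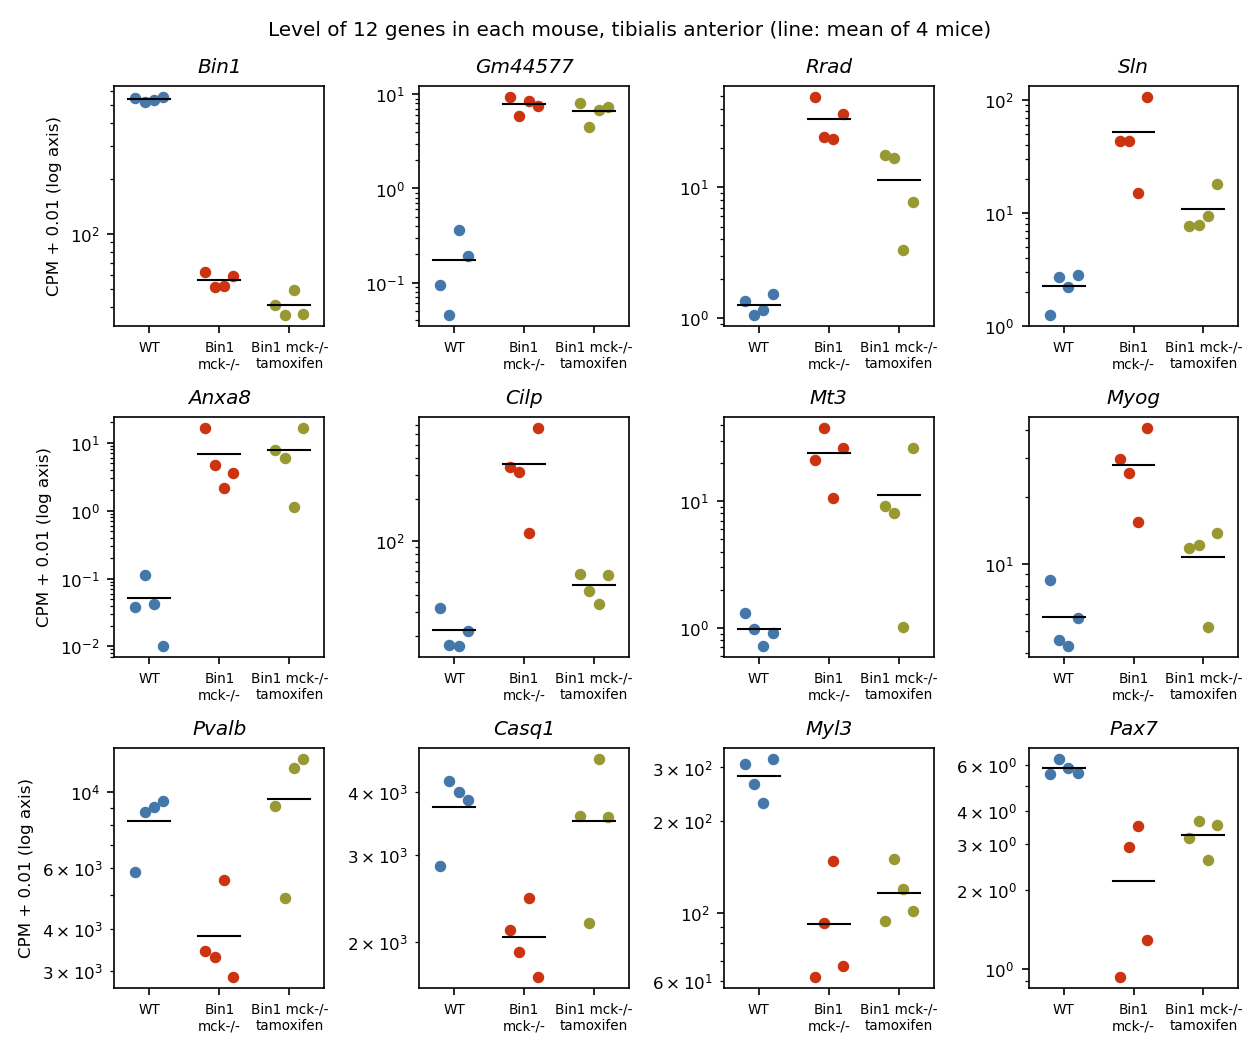
CPM (plus 0.01, log axis) of 12 genes in each mouse, with 4 points per group for WT, *Bin1* mck-/- and treated *Bin1* mck-/- mice and a line at the group mean. *Bin1* lies at 51.6 to 62.1 CPM in *Bin1* mck-/- mice against 521 to 556 in WT, and *Rrad* at 23.4 to 49.2 against 1.04 to 1.51. No gene shown has WT and *Bin1* mck-/- mice that overlap. All but *Myog*, *Pvalb* and *Casq1* belong to the largest rises and falls, for which lack of overlap was a condition of choice.

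Among centronuclear myopathy genes and their relatives, 15 of 16 could be tested and *Bin1* alone was called. *Dnm2* was at 62.3 to 74.0 CPM in WT and 70.5 to 82.4 in *Bin1* mck-/- mice (log2 fold change 0.13 ± 0.10, edgeR adjusted p = 0.507). *Mtm1* had 10.5 to 12.8 and 9.43 to 13.1 CPM (log2 fold change 0.00 ± 0.16, edgeR adjusted p = 0.996). The groups of both genes overlapped. *Amph*, the gene of the neuronal amphiphysin that is most like amphiphysin 2, was at 1.67 to 1.84 CPM in WT and at 0.538 to 0.906 in *Bin1* mck-/- mice, with no overlap. Its log2 fold change of −1.22 ± 0.32 had an edgeR adjusted p of 0.0538 in the 12-mouse fit and 0.0240 in the 8-mouse fit. *Dnm1*, the dynamin of nerve terminals, was at 7.13 to 8.64 CPM in WT and at 16.4 to 18.3 in *Bin1* mck-/- mice, again with no overlap. The edgeR adjusted p was 0.0704 for its log2 fold change of 1.13 ± 0.31, against 1.61e-04 in the 8-mouse fit. *Zfp106* had a log2 fold change of −0.51 ± 0.17 that missed the threshold in the 12-mouse fit (edgeR adjusted p = 0.100) and passed in the 8-mouse fit (0.0158), with DESeq2 (0.0333) and with limma. *Bin3*, *Mtmr2*, *Mtmr12*, *Mtmr14*, *Speg*, *Ryr1* and *Ttn* passed neither fit.

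Genes of the triad and of calcium handling changed in part. Of 37 tested triad and excitation-contraction coupling genes, 2 were called lower (*Casq1* and *Pvalb*) and 1 higher (*Trim72*). The median log2 fold change was −0.17, and 9 were lower in the 8-mouse fit. *Casq1* and *Pvalb* are counted again among the fast fiber genes and *Trim72* among the membrane repair genes. Over all genes, 0.627% were called lower and 1.99% higher, and 3.74% were lower in the 8-mouse fit. *Casq1*, which encodes the calcium-binding protein of the sarcoplasmic reticulum, was at 2840, 4220, 4000 and 3870 CPM in WT and at 2120, 1910, 2460 and 1700 in *Bin1* mck-/- mice. All 4 values lay below WT, with a log2 fold change of −0.87 ± 0.20 (edgeR adjusted p = 0.0384). *Ryr1* was at 3330 to 4600 CPM in WT and at 2220 to 3610 in *Bin1* mck-/- mice, and the overlapping groups gave an edgeR adjusted p of 0.200. *Atp2a1*, the calcium pump SERCA1 of fast fibers, had a log2 fold change of −0.48 ± 0.19 (edgeR adjusted p = 0.165). *Sln*, the gene of sarcolipin, an inhibitor of this pump, was one of 6 tested SERCA pumps and regulators and the only one called. It was at 1.23, 2.68, 2.21 and 2.80 CPM in WT and at 43.8, 43.4, 15.2 and 107 in *Bin1* mck-/- mice, with mouse 4 highest and mouse 3 lowest. Its log2 fold change was 4.56 ± 0.62 (edgeR adjusted p = 0.0119), kept in 10 of 12 and 6 of 8 leave-one-out fits. *Rrad* (ENSMUSG00000031880) was the only called member of the 3 tested RGK GTPases, a family that restrains voltage-gated calcium channels. It had 1.34, 1.04, 1.15 and 1.51 CPM in WT and 49.2, 24.3, 23.4 and 36.7 CPM in *Bin1* mck-/- mice. The call was kept in 12 of 12 and 8 of 8 fits (log2 fold change 4.72 ± 0.54, edgeR adjusted p = 0.00522). *Gem* and *Rem1* did not differ beyond their spread, with log2 fold changes of −0.32 and −0.12. The call of *Casq1* was kept in 6 of 12 and 8 of 8 fits.

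Several genes of fast fibers fell. Of 20 tested fast fiber genes, 5 were called lower and 1 higher, the median log2 fold change was −0.44, and 8 were lower in the 8-mouse fit. Among all genes, 0.627% were called lower and 1.99% higher, and 3.74% were lower in the 8-mouse fit. *Pvalb*, which encodes the calcium buffer parvalbumin, was at 5840, 8730, 9040 and 9400 CPM in WT, where mouse 5 stood lowest. *Bin1* mck-/- mice had 3440, 3310, 5550 and 2880 CPM, each below WT mouse 5. The log2 fold change of *Pvalb* was −1.12 ± 0.28 (edgeR adjusted p = 0.0498). *Actn3*, the Z-disc actinin of fast fibers, fell from 5390 to 8310 CPM in WT to 2640 to 4720 (log2 fold change −1.05 ± 0.24, edgeR adjusted p = 0.0366). *Mylk2*, the kinase of the myosin regulatory light chain, and *Mybpc2*, the fast myosin-binding protein C, had log2 fold changes of −1.02 ± 0.23 and −0.97 ± 0.24, with edgeR adjusted p = 0.0330 and 0.0456. The myosin heavy chain gene of type IIb fibers, *Myh4*, was at 23000 to 31400 CPM in WT and 9080 to 20100 in *Bin1* mck-/- mice. Its groups did not overlap, but the 12-mouse fit did not call it (edgeR adjusted p = 0.138). It passed in the 8-mouse fit (0.0389), with DESeq2 (0.0386) and with limma. *Smtnl1* was the fast fiber gene called higher, at 105 to 129 CPM in WT and 165 to 352 in *Bin1* mck-/- mice (log2 fold change 1.25 ± 0.25, edgeR adjusted p = 0.0263). The calls of *Pvalb*, *Actn3*, *Mylk2*, *Mybpc2* and *Smtnl1* were kept in 4 to 6 of 12 fits and in 8 of 8.

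The slow fiber list had a median log2 fold change of 0.06. Beside 0.627% of all genes called lower, it had 1 call among 20 genes, also lower. This gene, *Myl3*, a myosin light chain of slow fibers and ventricle, was at 309, 264, 229 and 320 CPM in WT and fell to 61.7, 92.8, 148 and 67.4 in *Bin1* mck-/- mice. The log2 fold change was −1.60 ± 0.25 (edgeR adjusted p = 0.0119), lost only without WT mouse 8 (edgeR adjusted p = 0.0512). Of 39 sarcomere, Z-disc and M-band genes, 2 rose and 2 fell, beside 1.99% of all genes called higher and 0.627% lower. *Actn3* and *Mybpc2*, already counted among the fast fiber genes, were those that fell. *Klhl40*, whose product stabilizes thin filament proteins, was at 171, 126, 135 and 137 CPM in WT and 329, 296, 234 and 369 in *Bin1* mck-/- mice. Every *Bin1* mck-/- mouse lay above WT (log2 fold change 1.11 ± 0.17, edgeR adjusted p = 0.00787), and the call was kept in 12 of 12 fits. *Mybph*, which encodes myosin-binding protein H, rose from 107 to 238 CPM in WT to 395 to 952 (log2 fold change 1.89 ± 0.31, edgeR adjusted p = 0.0136, kept in 10 of 12 and 6 of 8 fits). Among 36 glycolysis and glycogen genes, *Pfkfb3*, whose enzyme makes the activator of phosphofructokinase, fell from 135 to 365 CPM to 28 to 88.4 CPM. The log2 fold change of −2.02 ± 0.45 passed narrowly (edgeR adjusted p = 0.0456, and 0.0527 in the 8-mouse fit), and was kept in 3 of 12 and 1 of 8 fits. The glucose transporter gene *Slc2a1* rose (log2 fold change 0.97 ± 0.21, edgeR adjusted p = 0.0294, kept in 5 of 12 fits). *Smyd2*, the gene of a lysine methyltransferase abundant in muscle, was also among the largest falls, at 272 to 411 CPM in WT and 73.9 to 167 in *Bin1* mck-/- mice. Its log2 fold change was −1.54 ± 0.25 (edgeR adjusted p = 0.0119, kept in 10 of 12 fits).

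**Figure D2:**
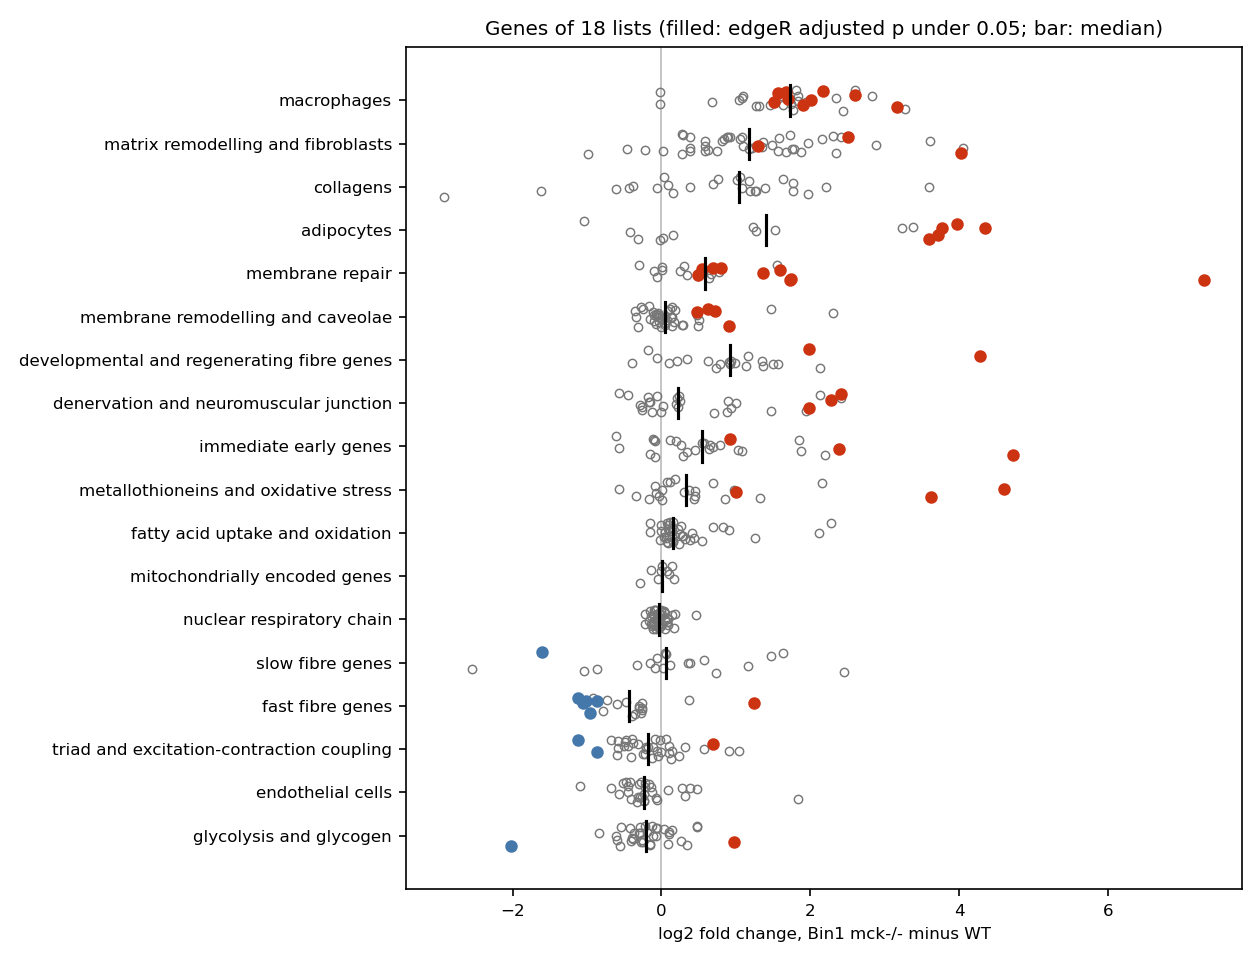
Log2 fold change of *Bin1* mck-/- against WT mice for every tested gene of 18 lists. Filled points passed the 12-mouse edgeR test, red higher and blue lower, open points did not, and a black bar marks the median of each list. Macrophage genes have a median of 1.73 and fast fiber genes one of −0.44, and mitochondrially encoded genes lie around 0.

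Part of the membrane repair genes rose. Of 22 tested genes, 9 were called higher and none lower, beside 1.99% of all genes, with a median log2 fold change of 0.59, and 13 were higher in the 8-mouse fit. They include the genes of 5 annexins, which bind phospholipids in a calcium-dependent way at membrane lesions (*Anxa1*, *Anxa2*, *Anxa4*, *Anxa7* and *Anxa8*), *S100a10*, *Trim72*, *Capn2* and *Pdcd6ip*. *Anxa2* was at 45.5, 35.7, 51.5 and 47.2 CPM in WT and at 131, 134, 96.0 and 235 in *Bin1* mck-/- mice. The groups did not overlap (log2 fold change 1.73 ± 0.30, edgeR adjusted p = 0.0179). *Anxa4* rose from 9.74 to 13.2 CPM in WT to 19.2 to 56.6 (log2 fold change 1.74 ± 0.28, edgeR adjusted p = 0.0136). *Anxa8* had the largest log2 fold change of all named genes (7.29, SE 1.27, edgeR adjusted p = 0.0236). It was nearly absent in WT, with 5 reads in all 4 mice and none in mouse 8, and had 68 to 560 reads in *Bin1* mck-/- mice (16.6, 4.63, 2.15 and 3.60 CPM). *Trim72*, which encodes the repair protein MG53, was at 191 to 240 CPM in WT and 237 to 381 in *Bin1* mck-/- mice, and its groups overlapped between WT mouse 5 at 240 CPM and *Bin1* mck-/- mouse 3 at 237 CPM. The calls of these 4 genes were kept in 6 to 10 of 12 fits. Without WT mouse 8 none of the 9 calls was kept, and in the 8-mouse fit leaving out a mouse gave 6 to 15 called members.

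Of 42 tested genes of membrane remodelling and caveolae, 4 were called higher, beside 1.99% of all genes, and none lower. The median log2 fold change was 0.05. *Cav3* and *Cavin4*, whose products form muscle caveolae, were at 54.0 to 68.9 and 129 to 172 CPM in WT and at 71.2 to 115 and 184 to 304 CPM in *Bin1* mck-/- mice. Their respective rises of 0.63 ± 0.15 and 0.72 ± 0.16 on the log2 scale passed at an edgeR adjusted p of 0.0427 and 0.0333. *Ehd4*, a membrane-shaping ATPase of endocytic recycling, rose from 63.1 to 82.4 CPM to 104 to 169 CPM (log2 fold change 0.91 ± 0.15, edgeR adjusted p = 0.0110). *Clta*, a clathrin light chain, completed the set. The call of *Ehd4* was kept in 10 of 12 fits and those of *Cav3*, *Cavin4* and *Clta* in 4, 6 and 4. In the costamere and cytoskeleton list of 41 tested genes, 3 were called higher, beside 1.99% of all genes. They were *Lmna* (nuclear lamin A/C, 70.3 to 88.8 CPM in WT and 122 to 200 in *Bin1* mck-/- mice), *Tubb6* (a tubulin, 9.57 to 19.8 and 40.6 to 170 CPM) and *Krt18* (a keratin, 0.128 to 0.391 and 0.918 to 11.2 CPM). No group overlapped in these 3 genes. Their calls were kept in 7, 4 and 4 of 12 fits and in 8, 5 and 5 of 8.

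Genes linked to denervated, developing or regenerating fibers rose in part. Of 29 tested denervation and neuromuscular junction genes, 3 were called higher (*Myog*, *Ncam1* and *Runx1*), with a list median log2 fold change of 0.23. Of 22 developmental and regenerating fiber genes, 2 were (*Ncam1* and *Krt18*), with a list median of 0.92. *Ncam1* is thus counted in both lists, and *Krt18* also in the costamere and cytoskeleton list above. The 8-mouse fit called 6 and 6 higher. The share of all genes called higher was 1.99%, and 6.41% in the 8-mouse fit. *Myog*, the gene of the myogenic transcription factor myogenin, was at 8.50, 4.56, 4.26 and 5.72 CPM in WT and at 29.6, 25.6, 15.5 and 40.9 CPM in *Bin1* mck-/- mice. The log2 fold change was 2.27 ± 0.36 (edgeR adjusted p = 0.0135), kept in 10 of 12 and 8 of 8 fits. *Runx1*, a transcription factor gene induced in denervated muscle, had 1.38 to 1.87 CPM in WT and 2.79 to 13.9 in *Bin1* mck-/- mice (log2 fold change 2.41 ± 0.55, edgeR adjusted p = 0.0452). *Ncam1*, a cell adhesion molecule gene that denervated and newly formed fibers express, had 7.92 to 11 and 11.9 to 48.6 CPM (log2 fold change 1.98 ± 0.41, edgeR adjusted p = 0.0366). Both calls were kept in 4 of 12 fits, and in 7 of 8 for *Runx1* and 1 of 8 for *Ncam1*, and *Bin1* mck-/- mouse 3 lay close to WT in both genes. Among the 31 tested genes of satellite cells and myogenic regulators, 2 rose (*Sox11* and *Myog*, already counted above) and 2 fell (*Pax7* and *Calcr*). Over all genes, 1.99% were called higher and 0.627% lower. *Pax7*, which marks satellite cells, the stem cells of muscle, was at 5.54, 6.33, 5.86 and 5.6 CPM in WT and at 0.917, 2.90, 3.51 and 1.28 CPM in *Bin1* mck-/- mice. All 4 lay below WT (log2 fold change −1.44 ± 0.33, edgeR adjusted p = 0.0345, kept in 5 of 12 and 4 of 8 fits). *Calcr*, the calcitonin receptor gene of quiescent satellite cells, had 67 reads in the WT mice and 3 in the *Bin1* mck-/- mice. The calls of *Sox11* and *Calcr* were kept in 4 and 8 of 12 fits. In whole muscle, fewer cells of a type and less RNA per cell cannot be told apart.

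*Gm28653* (ENSMUSG00000099906), a long noncoding RNA gene, was among the 12 largest rises. In the annotation its span holds the microRNA genes *Mir206* and *Mir133b* on the same strand. It was at 1.2, 0.0696, 0.448 and 0.362 CPM in WT and 5.18, 7.92, 3.10 and 20.8 CPM in *Bin1* mck-/- mice. The groups did not overlap, as the choice of these rises required (log2 fold change 4.11 ± 0.79, edgeR adjusted p = 0.0289, kept in 6 of 12 and 4 of 8 fits). The libraries were made from polyadenylated RNA and do not measure mature microRNAs. MiR-206, known as a microRNA of skeletal muscle, is shown because its gene lies in this span, with the seed (bases 2 to 8) in capitals, as listed by RefSeq for GRCm38.p6 at chr1:20679055-20679076 on the plus strand.

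mmu-miR-206-3p: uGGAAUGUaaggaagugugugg

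A few genes that control muscle mass also moved. *Mstn*, the gene of myostatin, which limits muscle growth, fell from 20.4 to 26.8 CPM in WT to 6.79 to 15.1 in *Bin1* mck-/- mice (log2 fold change −1.09 ± 0.26, edgeR adjusted p = 0.0490). *Fst*, which encodes its antagonist follistatin, was at 1.02 to 1.95 CPM in WT and 1.93 to 6.34 in *Bin1* mck-/- mice. These groups overlapped by mouse 3, and the log2 fold change was 1.64 ± 0.32 (edgeR adjusted p = 0.0181). They were the calls among 23 tested genes of this pathway. Of 25 tested atrophy ubiquitin ligases and FoxO targets, *Mt2* alone was called (median log2 fold change 0.03). In the 8-mouse fit 3 of them were higher and 1 lower. Of 22 tested genes of the IGF1 axis and growth, *Igfbp6* alone was called, higher (median −0.12), and 2 were higher in the 8-mouse fit. Over all genes, 1.99% were called higher and 0.627% lower, and 6.41% and 3.74% in the 8-mouse fit. *Eda2r*, the ectodysplasin A2 receptor gene and a p53 target, was the only call among 21 p53 targets. It rose from 4.06 to 7.05 CPM to 15.3 to 65.8 (log2 fold change 2.83 ± 0.40, edgeR adjusted p = 0.0116). The polyamine enzyme gene *Smox* fell from 95.4 to 132 CPM to 33.6 to 67.7 (log2 fold change −1.35 ± 0.28, edgeR adjusted p = 0.0323), and the cationic amino acid transporter gene *Slc7a2* fell from 41.9 to 47.3 to 23.2 to 35.4 CPM (log2 fold change −0.66 ± 0.15, edgeR adjusted p = 0.0323). *Eda2r* kept its call in 10 of 12 fits and 6 of 8, while *Fst* kept it in 7, *Smox* and *Slc7a2* in 6 and *Mstn* in 4 of 12, and these 4 in 8 of 8. The largest falls also include *Fgfr4*, a fibroblast growth factor receptor gene, from 6.02 to 6.96 CPM to 1.01 to 3.42 (log2 fold change −1.55 ± 0.28, edgeR adjusted p = 0.0136). *Npr3*, the clearance receptor of natriuretic peptides, fell from 18.6 to 27.3 CPM to 5.95 to 11.4 (log2 fold change −1.58 ± 0.33, edgeR adjusted p = 0.0336). *Lrtm2* fell from 12.1 to 18.4 to 4.59 to 6.37 CPM, *Prima1* (the membrane anchor of acetylcholinesterase) from 3.16 to 5.53 to 0.740 to 2.48, and *Cyp4f39* from 38.2 to 75.2 to 7.03 to 27.5. The calls of *Fgfr4*, *Npr3*, *Lrtm2*, *Prima1* and *Cyp4f39* were kept in 9, 6, 5, 6 and 5 of 12 fits and in 8, 8, 8, 7 and 2 of 8.

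Metallothioneins are small proteins that bind zinc and copper. *Mt3* was at 1.31, 0.974, 0.704 and 0.904 CPM in WT and at 21.2, 37.9, 10.5 and 26.1 CPM in *Bin1* mck-/- mice (log2 fold change 4.61 ± 0.86, edgeR adjusted p = 0.0303). *Mt2* was at 7.83, 3.62, 7.78 and 6.93 CPM in WT and at 47.9, 88.2, 15.0 and 173 CPM in *Bin1* mck-/- mice (log2 fold change 3.63 ± 0.80, edgeR adjusted p = 0.0490). *Mt1* was at 19.1, 9.43, 14 and 17.5 CPM in WT and at 39.2, 80.5, 23.5 and 126 CPM, and the log2 fold change, 2.16 ± 0.60, missed the threshold (edgeR adjusted p = 0.0887). No group overlapped in the 3 genes, and mouse 3 was the lowest *Bin1* mck-/- mouse in each. Together with *Srxn1*, which encodes sulfiredoxin, 3 of 24 tested genes of this list were called higher, beside 1.99% of all genes, and none lower. The calls of *Mt3* and *Mt2* were kept in 5 and 4 of 12 fits, and in 8 and 1 of 8.

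The 3 metallothionein genes lie close together on chromosome 8. Their promoters are shown because members of this family are induced by zinc through the metal response element. The 250 bases before each start site are given from RefSeq for GRCm38.p6, on the plus strand, 5′ to 3′, at chr8:94178839-94179088 for *Mt1*, chr8:94172368-94172617 for *Mt2* and chr8:94152357-94152606 for *Mt3*. Capitals mark matches to TGCGCNC or TGCACNC, the core of this element, on either strand.

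Mt1: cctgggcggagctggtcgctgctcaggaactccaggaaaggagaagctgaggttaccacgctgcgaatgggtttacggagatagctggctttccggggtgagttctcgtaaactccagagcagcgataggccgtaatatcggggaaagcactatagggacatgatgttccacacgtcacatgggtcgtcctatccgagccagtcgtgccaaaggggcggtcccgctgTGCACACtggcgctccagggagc
Mt2: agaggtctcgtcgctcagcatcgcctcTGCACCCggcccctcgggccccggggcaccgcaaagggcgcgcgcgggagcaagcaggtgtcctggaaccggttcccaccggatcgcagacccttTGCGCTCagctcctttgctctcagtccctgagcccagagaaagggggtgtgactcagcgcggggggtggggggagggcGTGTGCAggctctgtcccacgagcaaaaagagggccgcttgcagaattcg
Mt3: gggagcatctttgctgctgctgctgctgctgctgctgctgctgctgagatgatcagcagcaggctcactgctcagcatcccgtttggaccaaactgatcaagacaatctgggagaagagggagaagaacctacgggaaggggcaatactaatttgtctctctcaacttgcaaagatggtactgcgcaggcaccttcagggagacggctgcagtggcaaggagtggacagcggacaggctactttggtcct

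These windows held 1 match in *Mt1*, 3 in *Mt2* and 0 in *Mt3*. Bases after the annotated start sites were not searched, so these counts do not give the number of such elements in each promoter. Among 32851 promoter windows of the same length, 21.4% held at least 1 match and 1.26% at least 3.

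Immediate early genes, which respond within minutes to many stimuli, had 3 calls among 27 tested genes, all higher, and 8 in the 8-mouse fit (median log2 fold change 0.54). Beside them, 1.99% of all genes were called higher, and 6.41% in the 8-mouse fit. *Egr1*, a zinc finger transcription factor gene, was at 12.8, 12, 18.2 and 20 CPM in WT and 40 to 117 in *Bin1* mck-/- mice (log2 fold change 2.39 ± 0.51, edgeR adjusted p = 0.0443). *Fosl1*, an AP-1 subunit gene, had 6 reads in WT, all in mouse 5, and 19 to 82 reads in each *Bin1* mck-/- mouse. *Ier2* rose from 7.13 to 9.12 CPM to 11 to 18.4. *Egr1*, *Ier2* and *Fosl1* kept their calls in 4, 5 and 6 of 12 fits. *Tppp3*, a tubulin polymerization gene used here among the 15 tendon and myotendinous genes, was at 27.6, 20.6, 32.6 and 40.8 CPM in WT and at 115, 131, 60.2 and 84.4 CPM in *Bin1* mck-/- mice. Its call was kept in 12 of 12 and 8 of 8 fits (log2 fold change 1.68 ± 0.25, edgeR adjusted p = 0.0110). *Thbs4*, the most abundant gene of that list, was at 52.5 to 105 CPM in WT and at 193, 234, 68.7 and 915 CPM in *Bin1* mck-/- mice and did not pass the test (edgeR adjusted p = 0.243).

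Macrophage genes were higher in *Bin1* mck-/- muscle. Of 33 tested genes, 9 were called higher and none lower, beside 1.99% of all genes, the median log2 fold change was 1.73, and 31 had a positive value. The 8-mouse fit called 23 of them (6.41% of all genes were called higher there) and 13 to 26 when a mouse was left out. In the 12-mouse fit none of the 9 calls was kept without WT mouse 6, WT mouse 8 or *Bin1* mck-/- mouse 4. The summed level of the list was 151 to 244 CPM in WT and 399 to 859 CPM in *Bin1* mck-/- mice, 2.99 times as high on average, and no member was at 0 in all mice. *Adgre1*, the gene of the best known macrophage surface antigen, was at 2.18, 1.81, 2.21 and 0.904 CPM in WT and at 6.87, 8.4, 5.73 and 11.1 CPM in *Bin1* mck-/- mice (log2 fold change 2.17 ± 0.39, edgeR adjusted p = 0.0147, kept in 9 of 12 fits). *Cd68*, a lysosomal glycoprotein gene of macrophages, rose from 1.74 to 2.91 CPM to 9.17 to 20.9 (log2 fold change 2.60 ± 0.50, edgeR adjusted p = 0.0289). *Lgals3*, which encodes galectin 3, rose from 2.99 to 4.26 CPM to 17.8 to 45.7 (log2 fold change 3.17 ± 0.60, edgeR adjusted p = 0.0316). *Cd68* and *Lgals3* were kept in 6 and 5 of 12 fits and in 8 of 8. *Ptprc*, the pan-leukocyte gene CD45, rose from 1.45 to 1.77 CPM to 4.23 to 8.39 (log2 fold change 1.99 ± 0.32, edgeR adjusted p = 0.0110, kept in 11 of 12 fits). It was the only call among 10 tested lymphocyte and neutrophil genes. Of the 33 genes of that list, *Camp*, *Elane* and *Ly6g*, which mark neutrophils, had no read in the 8 mice. All its other members had reads. The list summed to 30.73 to 58.94 CPM in WT and 28.35 to 55.92 in *Bin1* mck-/- mice. Without *Ighm*, its most abundant gene, the sums were 8.798 to 11.27 and 19.96 to 27.89 CPM.

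Of 47 tested genes of matrix remodelling and fibroblasts, 3 were called higher, 24 in the 8-mouse fit, and none was lower in either. For all genes the shares called higher were 1.99% and 6.41%. The median log2 fold change was 1.18 and 44 values were positive. *Cilp*, a matrix protein gene, was at 32.3, 17.2, 16.9 and 21.9 CPM in WT and at 343, 316, 114 and 663 in *Bin1* mck-/- mice. The groups lay far apart (log2 fold change 4.02 ± 0.50, edgeR adjusted p = 0.00855), and it was kept in 11 of 12 fits, with the loss without WT mouse 8 (edgeR adjusted p = 0.0512), and in 7 of 8. *Mfap5*, a gene of elastic microfibrils, rose from 12.9 to 21.8 CPM to 47.3 to 149 (log2 fold change 2.51 ± 0.50, edgeR adjusted p = 0.0345, kept in 5 of 12 and 6 of 8 fits). None of 26 tested collagen genes passed the 12-mouse edgeR test. At an unadjusted p under 0.05, 4 were higher and 2 lower, beside 2995 of all 14841 genes. The other fits called 10 higher with the 8 mice, 3 with DESeq2, and 7 higher and 1 lower with limma. Over all genes, DESeq2 called 755 higher, and limma 1082 higher and 730 lower. *Col3a1* was at 424, 312, 373 and 285 CPM in WT and at 816, 1610, 914 and 2120 CPM in *Bin1* mck-/- mice, with no overlap. The edgeR adjusted p was 0.193 in the 12-mouse fit and 0.00913 in the 8-mouse fit. The treated mice in the 12-mouse fit ranged from 136 to 2800 CPM of this gene, and their part in its spread estimate was not tested beyond these 2 fits. *Col1a1* passed neither fit, at 242 to 386 CPM in WT and 387 to 1430 in *Bin1* mck-/- mice.

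Some adipocyte genes of low level rose. Of 16 tested genes, 5 were called higher and none lower, beside 1.99% of all genes called higher, and 12 had a positive log2 fold change. In the 8-mouse fit 10 were higher, beside 6.41% of all genes, and 8 to 10 when a mouse was left out. In the 12-mouse fit none of the 5 calls was kept without WT mouse 8. *Cfd*, the gene of the adipokine adipsin, was at 3.78, 2.71, 2.24 and 2.89 CPM in WT and at 71.6, 29.6, 21.6 and 36.0 CPM in *Bin1* mck-/- mice (log2 fold change 3.77 ± 0.67, edgeR adjusted p = 0.0263). *Pck1*, which serves glyceroneogenesis in fat cells, was at 0.0904 to 0.503 CPM in WT and 2.88 to 8.76 in *Bin1* mck-/- mice (log2 fold change 4.35 ± 0.79, edgeR adjusted p = 0.0203). *Cidec*, a lipid droplet gene, rose from 0.211 to 0.727 CPM to 2.37 to 7.69 (log2 fold change 3.72 ± 0.64, edgeR adjusted p = 0.0147). *Adrb3*, the adrenergic receptor of fat cells, had 8 reads in WT and 142 in *Bin1* mck-/- mice, and *Plin1* 36 and 473. *Adipoq*, the adiponectin gene, was at 0.064 to 0.663 CPM in WT and 1.80 to 6.01 in *Bin1* mck-/- mice (edgeR adjusted p = 0.0545, and 0.00651 in the 8-mouse fit). *Cyp2e1*, which is not in the list but was among the largest rises, went from 0.139 to 0.480 CPM to 2.47 to 10.9 (log2 fold change 4.67 ± 0.77, edgeR adjusted p = 0.0136). In each of these genes *Bin1* mck-/- mice lay above WT without overlap. By contrast, *Fabp4*, the abundant fatty acid-binding protein gene of fat cells and capillaries, was named after its values were seen and had 241 to 269 CPM in WT and 196 to 346 in *Bin1* mck-/- mice (log2 fold change −0.02 ± 0.16, edgeR adjusted p = 0.953). *Lep* had no read in WT and 10 in *Bin1* mck-/- mice, and *Ucp1* none in any. The summed level of the list went the other way, 2478 to 4888 CPM in WT and 2022 to 3237 in *Bin1* mck-/- mice, because *Car3*, which muscle fibers also express, made up most of it. Without *Car3* the sum was 732 to 874 CPM in WT and 940 to 1004 in *Bin1* mck-/- mice. That sum still holds the abundant *Fabp4* and *Lpl*, whose groups overlapped, so it is no measure of fat cells alone. The calls of *Cfd*, *Pck1*, *Cidec*, *Adrb3* and *Cyp2e1* were kept in 5, 7, 9, 10 and 10 of 12 fits and in 8 of 8. Whether adipose tissue taken with the muscle had a part in this was not tested.

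Lists of other cell types had few calls or none. None of 31 tested endothelial genes passed the 12-mouse edgeR test. Their median log2 fold change was −0.24 and 6 values were positive. Without overlap, 9 lay below WT, beside 7.46% of all genes. At an unadjusted p under 0.05, 1 was higher and 9 lower, beside 2995 of all 14841 genes. The 8-mouse fit called 5 lower, beside 3.74% of all genes. DESeq2 called 1 higher and 2 lower, beside 755 and 394 over all genes, and limma 1 higher and 8 lower, beside 1082 and 730. *Dll4*, a Notch ligand gene of endothelium, had 20.4 to 22.3 CPM in WT and 8.91 to 15.9 in *Bin1* mck-/- mice (edgeR adjusted p = 0.0572, and 0.0129 in the 8-mouse fit). Erythroid genes summed to 440 to 958 CPM in WT and 874 to 2184 in *Bin1* mck-/- mice. None of 10 was called by edgeR in the 12-mouse fit, and 6 were higher at an unadjusted p under 0.05. The 8-mouse fit called 1 higher, beside 6.41% of all genes, DESeq2 0 and limma 0. Pericyte and smooth muscle genes had 1 call of 14 tested (*Cnn1*) and Schwann cell and nerve genes 2 of 17 (*Pmp22* and *Scn7a*). All were higher, beside 1.99% of all genes called higher. The calls of *Cnn1*, *Pmp22* and *Scn7a* were kept in 5, 4 and 4 of 12 fits and in 8, 7 and 2 of 8. How the levels of fibers, macrophages, matrix and fat genes depend on each other in these mice was not tested.

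Among the remaining lists, calls were few. Of 22 tested TGF-beta ligands and targets, 21 had a positive log2 fold change. In the 12-mouse fit 2 were called higher, and 8 in the 8-mouse fit, beside 1.99% and 6.41% of all genes. The 2 were *Ccn3*, a matricellular protein gene, at 1.5 to 2.38 CPM in WT and 4.70 to 6.33 in *Bin1* mck-/- mice, and *Ccn2*, the connective tissue growth factor gene, at 12.2 to 19.4 and 27.6 to 99.8 CPM. *Hp*, the haptoglobin gene of the acute phase, was at 0.181 to 0.416 CPM in WT and at 2.28 to 4.25 in *Bin1* mck-/- mice (log2 fold change 3.69 ± 0.64, edgeR adjusted p = 0.0136). *Psat1*, an enzyme gene of serine synthesis, was the only call among 34 genes of the unfolded protein and integrated stress responses, at 1.04 to 1.99 and 3.26 to 8.68 CPM. None of these groups overlapped. The calls of *Hp*, *Psat1*, *Ccn3* and *Ccn2* were kept in 10, 9, 7 and 6 of 12 fits and in 8, 8, 8 and 2 of 8. None of 19 tested MHC antigen presentation genes was called by edgeR in the 12-mouse fit. At an unadjusted p under 0.05, 7 were higher and 1 lower, beside 2995 of all 14841 genes. The 8-mouse fit called 5 higher and 1 lower, beside 6.41% and 3.74% of all genes. DESeq2 called 6 higher, and limma 7 higher and 1 lower. Over all genes, DESeq2 called 755 higher, and limma 1082 higher and 730 lower.

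**Figure D3:**
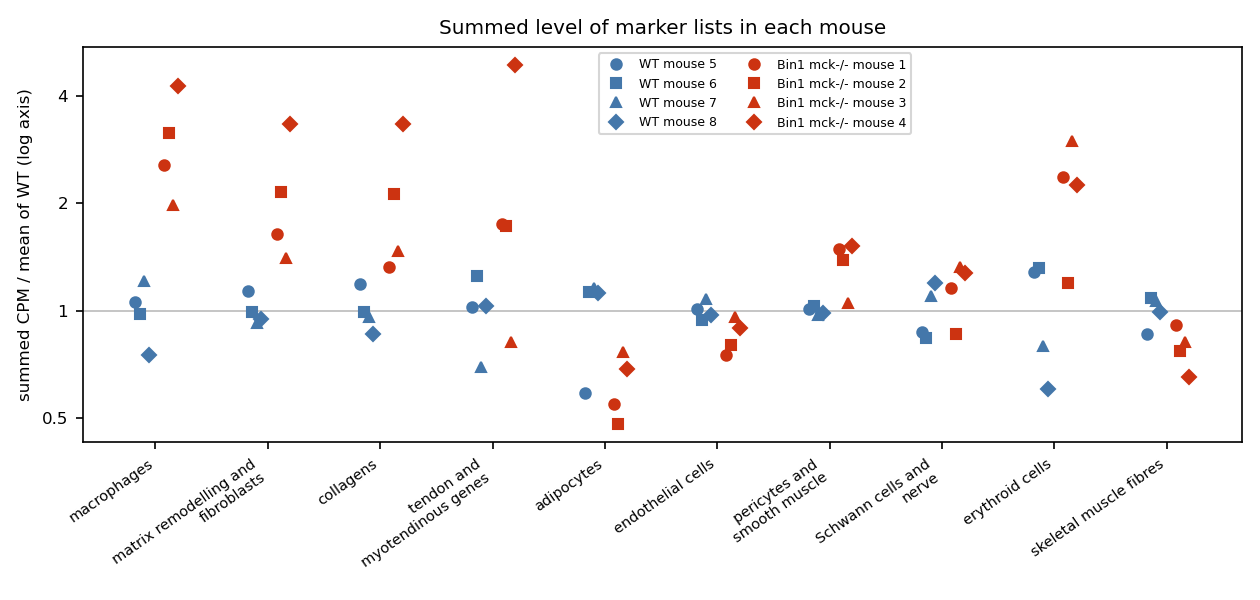
Summed CPM of 10 marker lists in each of the 8 mice, divided by the mean of the 4 WT mice (log axis), blue for WT and red for *Bin1* mck-/- mice, with a symbol for each mouse. Macrophage, matrix and collagen genes of all 4 *Bin1* mck-/- mice lie above WT, with mouse 4 highest, while the endothelial and Schwann cell lists overlap.

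None of the mitochondrial and fatty acid lists had a call in the 12-mouse fit. Mitochondrially encoded genes took 10.4% ± 0.965 of reads in *Bin1* mck-/- mice (SD, n = 4) and 9.1% ± 0.831 in WT (n = 4), a difference of 1.34 percentage points that did not pass an exact two-sided permutation test (p = 0.114, smallest possible 0.0286). None of 9 tested mitochondrially encoded genes was called by edgeR, DESeq2 or limma, and 0 had an unadjusted p under 0.05. Of 44 nuclear respiratory chain genes, 0 passed the 12-mouse edgeR fit, 1 the 8-mouse fit (*Cox5b*), 0 DESeq2 and 1 limma, with 1 at an unadjusted p under 0.05, and their median log2 fold change was −0.04. Fatty acid uptake and oxidation genes had no call among 39 in the 12-mouse edgeR fit, but 35 had a positive log2 fold change (median 0.16). An unadjusted p under 0.05 was found for 13, and 5 were higher in the 8-mouse fit, 4 with DESeq2 and 9 with limma. Among all 14841 genes, 2995 had an unadjusted p under 0.05. The 8-mouse fit called 6.41% of all genes higher, and DESeq2 and limma called 755 and 1082 genes higher.

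The changes were then set beside those of *Dnm2* S619L/+ mice, another model of centronuclear myopathy, against WT mice of their own cohort. The comparisons share no mice, and the library protocol and the model cannot be told apart. In the *Dnm2* cohort 3382 of 15439 genes were called (21.9%). Of the 388 genes called in *Bin1* mck-/- mice, 381 were tested there and 273 were called, 272 of them in the same direction. A direct test of the difference between both changes called 50 of 16036 genes (0.312%), and 3 of the 388 were among them. These 3 were *Bin1* and *Gm44577* at the deleted locus, and *Acss1*, which was named after its values were seen. *Gm44577* did not pass the filter on low counts in the *Dnm2* cohort fit, so its difference rests on few reads there. Leaving out a mouse gave 13 to 154 genes that differ, and the stability of single differences is not given. *Acss1*, a mitochondrial acetyl-CoA synthetase gene, was at 23.8, 19.6, 19.3 and 21.9 CPM in WT and at 48.8, 50.2, 31.7 and 47.9 CPM in *Bin1* mck-/- mice (log2 fold change 1.08 ± 0.16, edgeR adjusted p = 0.00602). Its log2 fold change in *Dnm2* S619L/+ mice was −0.20 ± 0.17, and the difference was 1.28 ± 0.24 (edgeR adjusted p = 0.0171). *Bin1* itself had a log2 fold change of 0.81 ± 0.15 in *Dnm2* S619L/+ mice.

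For most named genes the difference between the models did not pass the test. *Rrad* had log2 fold changes of 4.72 and 4.96 in *Bin1* mck-/- and *Dnm2* S619L/+ mice (difference −0.25 ± 0.61, edgeR adjusted p = 0.910). *Sln* had 4.56 and 6.32 (difference −1.75 ± 0.90, edgeR adjusted p = 0.404), and *Myl3* −1.60 and −1.96 (difference 0.36 ± 0.49, edgeR adjusted p = 0.804). Genes of fat cells had larger values in *Bin1* mck-/- mice, with 3.97 and 0.10 for *Adrb3* and 3.72 and 0.62 for *Cidec*, but the edgeR adjusted p of the differences was 0.151 and 0.233. *Pvalb* had −1.12 and −0.10 (difference −1.01 ± 0.40, edgeR adjusted p = 0.254). A p above the threshold does not show that the models are alike, since the SE of such differences reached 1.2 for *Adrb3*.

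Mitochondrial and lipid genes stood among those that differed. Of 9 mitochondrially encoded genes, 8 were called lower in *Dnm2* S619L/+ mice (median log2 fold change −0.89, against 0.01 in *Bin1* mck-/- mice) and the difference passed for 5. *mt-Co1*, a cytochrome c oxidase subunit gene, had log2 fold changes of 0.16 ± 0.14 in *Bin1* mck-/- and −0.93 ± 0.15 in *Dnm2* S619L/+ mice, and the difference of 1.095 ± 0.19 had an edgeR adjusted p of 0.0101. *mt-Nd5* had a difference of 1.37 ± 0.22 (edgeR adjusted p = 0.00510). In the list of fatty acid uptake and oxidation, the difference passed for 6 of 39 genes, and 14 were called lower in *Dnm2* S619L/+ mice. *Lpl*, the lipoprotein lipase gene, was at 406 to 557 CPM in WT and 438 to 623 in *Bin1* mck-/- mice, with a difference of 1.25 ± 0.23 (edgeR adjusted p = 0.0113). *Bdh1*, a ketone body enzyme gene named after its values were seen, had a log2 fold change of 0.10 ± 0.44 in *Bin1* mck-/- and −3.46 ± 0.40 in *Dnm2* S619L/+ mice (difference 3.56 ± 0.60, edgeR adjusted p = 0.00906).

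**Figure D4:**
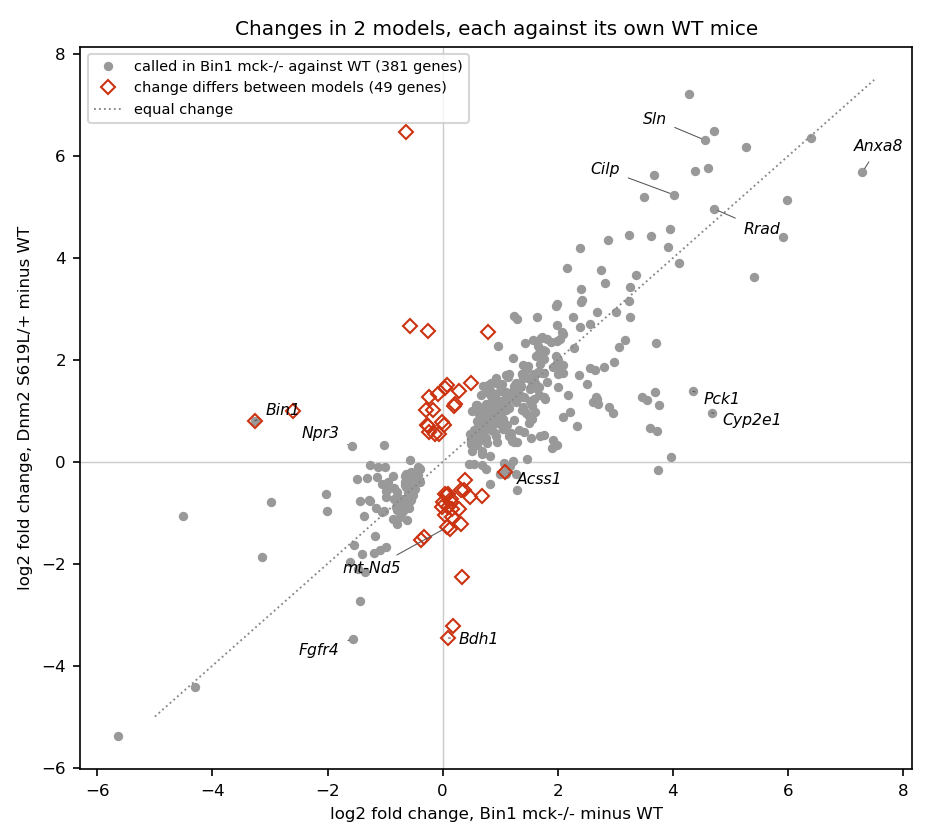
Log2 fold change of *Bin1* mck-/- against WT mice (x axis) and of *Dnm2* S619L/+ against their own WT mice (y axis) for 381 genes called in the first comparison (gray) and 49 genes whose change differs between the models (red diamonds, *Gm44577* not shown because it was not tested in the *Dnm2* cohort). Most called genes lie in the upper right and lower left quadrants, and the genes that differ lie mostly near 0 on the x axis.

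The treated *Bin1* mck-/- mice are given beside the untreated mice as values, without a test. *Rrad* was at 17.8, 16.9, 3.30 and 7.68 CPM in treated mice, between WT and untreated *Bin1* mck-/- mice. *Cilp* was at 34.5 to 57.1 CPM, above the 16.9 to 32.3 CPM of WT and below the 114 to 663 of untreated mice. *Fgfr4* was at 5.30 to 6.32 CPM and overlapped WT but not untreated mice. *Casq1*, at 2190 to 4670 CPM, overlapped both WT and untreated *Bin1* mck-/- mice. *Myl3* was at 94.5 to 150 CPM and *Pax7* at 2.60 to 3.67, each below WT and overlapping untreated mice. *Anxa8* was at 1.13 to 16.3 CPM and *Acss1* at 33.7 to 52.5, and both overlapped untreated *Bin1* mck-/- mice. *Lrtm2*, at 18.7 to 58.6 CPM, lay above both other groups.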

How the data were processed

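Poly(A) RNA of TA muscle was sequenced from stranded libraries. The deposited values are raw counts, which the authors made per Ensembl gene and did not normalize, and the submitters' processing notes name bcl2fastq 2.20.0.422, cutadapt 1.10, Bowtie 1.2.2, STAR 2.5.3, HTSeq 0.6.1p1 and the build mm39. The table of the *Bin1* cohort has 4 lines that name no gene, with 22% to 30.8% of its counts, and these were left out. Reads shared by close copies, such as mitochondrial genes, are uncertain. Genes were named with GENCODE M21 (GRCm38), used for names and neighbours only. RefSeq sequences are of GRCm38.p6.

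The 12 mice of the cohort were fitted together with edgeR 4.0.16 in R 4.3.3 (TMM, default filter on low counts, robust quasi-likelihood test, Benjamini-Hochberg adjusted p under 0.05). The SE is the log2 fold change divided by the root of the F statistic. Comparison with *Dnm2* S619L/+ mice used the 28 mice with a term per group. The alternatives were the 8 compared mice, DESeq2 1.42.0, limma 3.58.1, other normalization and filters, and leaving out each mouse. In the 8-mouse fit this was added after the counts were seen. Scripts were tested on simulated data. The groups compared share no replicate numbers. In the *Dnm2* cohort deviations of same-numbered mice correlated at 0.0271 to 0.154, not above 0.1 for every number. No count column was unassigned.

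The members and gene lists were chosen with earlier results of these data known. Genes chosen for naming were the members of the centronuclear myopathy, SERCA and RGK lists. From each list up to 4 called members (or up to 2 with the smallest p) were added. The 12 largest rises and 12 largest falls were also chosen, among called genes without overlap and with a mean log2 CPM above 1. Not every gene chosen in this way is described. Others named by value are *Myh4*, *Mt1*, *Adipoq*, *Plin1*, *Car3*, *Fabp4*, *Thbs4*, *Col1a1*, *Col3a1*, *Acss1*, *Bdh1*, *Lpl* and *mt-Nd5*, chosen after their values were seen, as were the neighbours of *Bin1*, members without reads and called members listed by symbol only. Nothing in the labels says whether mice of a group share a litter.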

Additional observations from a re-analysis of the deposited data

Results flagged for a closer look

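In 214 groups of 4 mice, 13 had a mouse that stood apart from the other 3 by Dixon's criterion, and chance gives about 1 in 20 such groups, that is 11. In WT these were *Car3* (1600 CPM in mouse 5), *Fosl1* (0.168 CPM in mouse 5), *Mstn* (26.8 CPM in mouse 7), *Trim72* (240 CPM in mouse 5), *Mfap5* (21.8 CPM in mouse 5), the summed level of adipocyte genes (2478 CPM in mouse 5, which follows *Car3*), *Calcr* (0.731 CPM in mouse 6) and the mitochondrial share of reads (7.86% in mouse 7). In *Bin1* mck-/- mice they were *Acss1* (31.7 CPM) and *Bdh1* (59.0 CPM) in mouse 3, *Col14a1* (41.8 CPM) and *Zfp106* (605 CPM) in mouse 4, and *Calcr* (0.0966 CPM, its only reads in this group) in mouse 2.

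The change in *Bin1* mck-/- mice differed from that in *Dnm2* S619L/+ mice, by the test of the difference in log2 fold changes, for *Bin1* (−4.06), *Gm44577* (5.93), *Acss1* (1.28), *Bdh1* (3.56), *mt-Co1* (1.095), *mt-Nd5* (1.37) and *Lpl* (1.25). *Gm44577* did not pass the filter on low counts in the *Dnm2* cohort fit.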

How the results depend on the processing

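The 388 genes called (295 higher, 93 lower) became 1458 (921 and 537) with the 8 compared mice only, 1149 (755 and 394) with DESeq2 and 1812 (1082 and 730) with limma, and without a filter the genes called lower were 154. Leaving out 1 mouse of 12 gave 18 to 759 genes (16 to 517 higher, 2 to 242 lower), and leaving out 1 of 8 gave 1229, 857, 2123 and 926 without *Bin1* mck-/- mouse 1 to 4 and 1272, 522, 699 and 742 without WT mouse 5 to 8. RLE normalization, library sizes without mitochondrial genes and the filter of more than 10 reads in 90% of mice stayed within 1.5 times. Fewer mice leave fewer degrees of freedom, and why single mice moved the count so far was not tested. Of 83 calls among the genes chosen for naming, not all of them described, 79 were kept in the 8-mouse fit. Without any of the 12 mice 5 were kept (*Bin1*, *Gm44577*, *Rrad*, *Klhl40* and *Tppp3*). The 50 genes whose change differs from that in *Dnm2* S619L/+ mice became 86 with the 16 placebo mice, 228 with DESeq2 and 13 to 154 when a mouse was left out. With the replicate block in the *Dnm2* cohort they were 37, and the genes called in that cohort went from 3382 to 2842. No paired analysis was possible for *Bin1* mck-/- against WT because the groups share no replicate number. The difference in mitochondrial share ranged from 0.931 to 1.73 percentage points when a mouse was left out, and passed only without *Bin1* mck-/- mouse 1.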
